A study of Mus musculus with 6 samples.

Results

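The 30 genes described here encode proteins of the piRNA pathway and of germ granules in the mouse testis. They were chosen by gene symbol, and all 30 were found among the 24411 genes of the deposited files. RNA was sequenced from whole testes of age-matched C57BL/6 males, with 3 libraries whose genotype label is MRP5-/- and MRP9-/- (called labelled DKO here) and 3 whose label is Wildtype (called labelled WT). The proteins MRP5 and MRP9 are membrane transporters of the ABCC family, encoded by Abcc5 and Abcc12. The age, the design of the alleles and any pooling of animals are not given in the labels. Each group is 1 genotype on the same strain, untreated as far as the labels say.

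PIWI-interacting RNAs (piRNAs) are small RNAs that guide PIWI proteins to transposon and other transcripts in germ cells. Long precursors are transcribed and cut at the surface of mitochondria. The pieces are loaded into PIWI proteins, then trimmed and methylated at their ends. In fetal male germ cells this pathway directs DNA methylation of transposons, and in pachytene spermatocytes and round spermatids a separate, abundant class of piRNAs is made. Many of its proteins gather in cytoplasmic germ granules, the intermitochondrial cement of spermatocytes and the chromatoid body of round spermatids, where Tudor domain proteins bind methylated arginines of PIWI proteins.

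In the libraries labelled DKO, Ddx4, Tdrkh and Tdrd5 were higher, and Pld6 and Fkbp6 were lower, by 24.2% to 32.6% and by 22.4% to 23.0% in turn. DDX4 is an RNA helicase and the classical marker of germ cells, TDRKH anchors the trimming of piRNAs at mitochondria, and TDRD5 takes part in making pachytene piRNAs. PLD6 is the nuclease on the outer mitochondrial membrane that cuts piRNA precursors, and FKBP6 is a co-chaperone needed for piRNA production. The PIWI genes Piwil1 and Piwil2 were at about the same level in both groups. The calls depended on the fit, as described further on. None of the 5 passed the threshold after each library's trends on transcript length and GC content were removed. In that fit 3.45% of all genes tested were called, against 10.8% with the trends left in.

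The libraries labelled DKO held 42673615, 45666837 and 67131103 counts and those labelled WT 26753721, 31745969 and 30483782. The mean fragment length was 275 to 317 bases in libraries labelled DKO and 230 to 258 bases in those labelled WT, so depth and fragment length did not overlap between the groups and cannot be told apart from genotype. As a check of the labels, Abcc12 was lower in libraries labelled DKO (log2 fold change -1.02, edgeR adjusted p = 0.000307), while Abcc5 was higher (0.56, adjusted p = 0.0225), so groups are named by their labels. The closest members to the targeted genes on the same chromosome were Morc1, 28.0 Mb from Abcc5, and Tex15, 52.9 Mb from Abcc12. Markers of the testis were present: Prm1, a protamine of elongating spermatids, had 2845 CPM (the count relative to a scaled library size, in the usual CPM unit) in libraries labelled DKO and 3305 in those labelled WT, Insl3, a Leydig cell hormone, 186 and 403, and Sox9, a Sertoli cell factor, 15.2 and 16.8. Of 6 epididymal genes, Lcn5 and Lcn8 had no count in any library, Lcn9, Crisp1 and Defb20 had at most 0.136 CPM, and Rnase10 had 4.36 to 6.27 CPM. The summed level of the 6 was 5.57 to 6.48 CPM in libraries labelled DKO and 4.52 to 5.98 CPM in those labelled WT.

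The members spanned a wide range of abundance in the testis. Levels are compared between genes in TPM, the transcript abundance unit that takes account of length. Mael, which encodes a piRNA factor of the granule, had the highest level at 1051 ± 28.4 TPM in libraries labelled WT (SD, n = 3). It was followed by the related zinc finger genes Gtsf1l (632 ± 91.4 TPM) and Gtsf1 (542 ± 21.4 TPM), by the helicase genes Ddx25 (504 ± 4.36 TPM) and Ddx4 (266 ± 16.3 TPM), and by Piwil1 (210 ± 12.7 TPM). Library by library, these 6 did not overlap their neighbours in the order. In the middle of the order, Piwil2, Tdrd1, Fkbp6 and Tdrd9 each overlapped the next in the libraries labelled WT, with means of 62.2, 62.1, 56.6 and 50.7 TPM, and their order is not resolved. The same holds for Rnf17 and Mov10l1 (44.3 and 41.9 TPM), Tdrd12 and Henmt1 (21.9 and 20.4 TPM), Asz1 and Mybl1 (18.3 and 17.9 TPM), and the run Dnmt3l, Tex15 and Tdrkh (13.8, 12.2 and 12.1 TPM). At the lower end were Exd1 (9.68 TPM), Pnldc1 (4.98), Btbd18 (3.08) and Morc1 (2.80). Btbd18 and Morc1 overlapped in the libraries labelled WT, so their order is not resolved either. Piwil4 was lowest at 0.137 ± 0.0569 TPM.

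**Figure D1:**
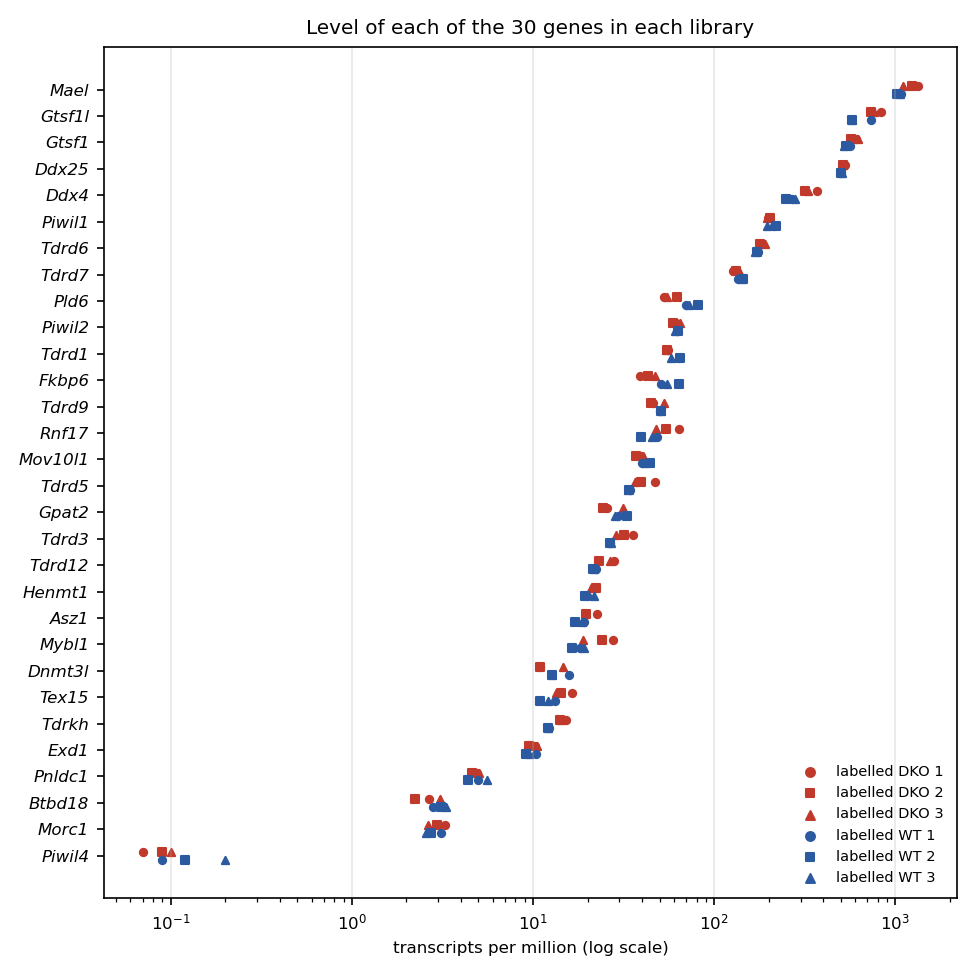
TPM (log scale) of each of the 30 genes, ordered by the mean in libraries labelled WT, with 1 point per library (red, labelled DKO; blue, labelled WT). Mael is at the top at 1051 TPM in libraries labelled WT, Piwil4 stands apart at the bottom at 0.137 TPM, and the libraries of both groups lie close together for every gene against the range between genes.

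The comparison asks which of these genes differ in testes labelled as lacking both transporters. Of the 30 members, 29 passed the filter on low counts, and 5 were called by the edgeR quasi-likelihood test at an adjusted p under 0.05, with p-values adjusted over all 17110 genes tested. Of them 3 were higher, which is 10.3% of the 29, against 5.75% of all genes tested. The other 2 were lower, which is 6.90%, against 5.10% of all genes. The groups did not overlap, with every library labelled DKO above every library labelled WT, for 6 members (20.7%), against 18.4% of all genes, and the reverse was so for 3 members (10.3%), against 17.5%. These shares rest on few genes and lie near those of all genes. The median log2 fold change of the 29 was 0.12, with 18 positive and 11 negative, against a median of -0.0042 over all genes tested. No member reached an absolute log2 fold change above 0.47. A further 6 members had an adjusted p between 0.05 and 0.1, all of them positive: Mybl1 (0.0526), Tdrd3 (0.0558), Tdrd12 (0.0621), Tex15 (0.0661), Rnf17 (0.0706) and Mael (0.0938). How many of all genes fell in that range was not counted. Transcripts of these 6 had 37.4% to 46.7% GC, where the median log2 fold change of all genes was positive as well. At an unadjusted p under 0.05 in the same edgeR test stood 13 of the 29 members (44.8%), against 31.7% of all genes tested. In bulk tissue, fewer cells of a type and less RNA per cell cannot be told apart. The design text names 3 mice per genotype without tying each library to one, so p-values measure the spread between these libraries.

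**Figure D2:**
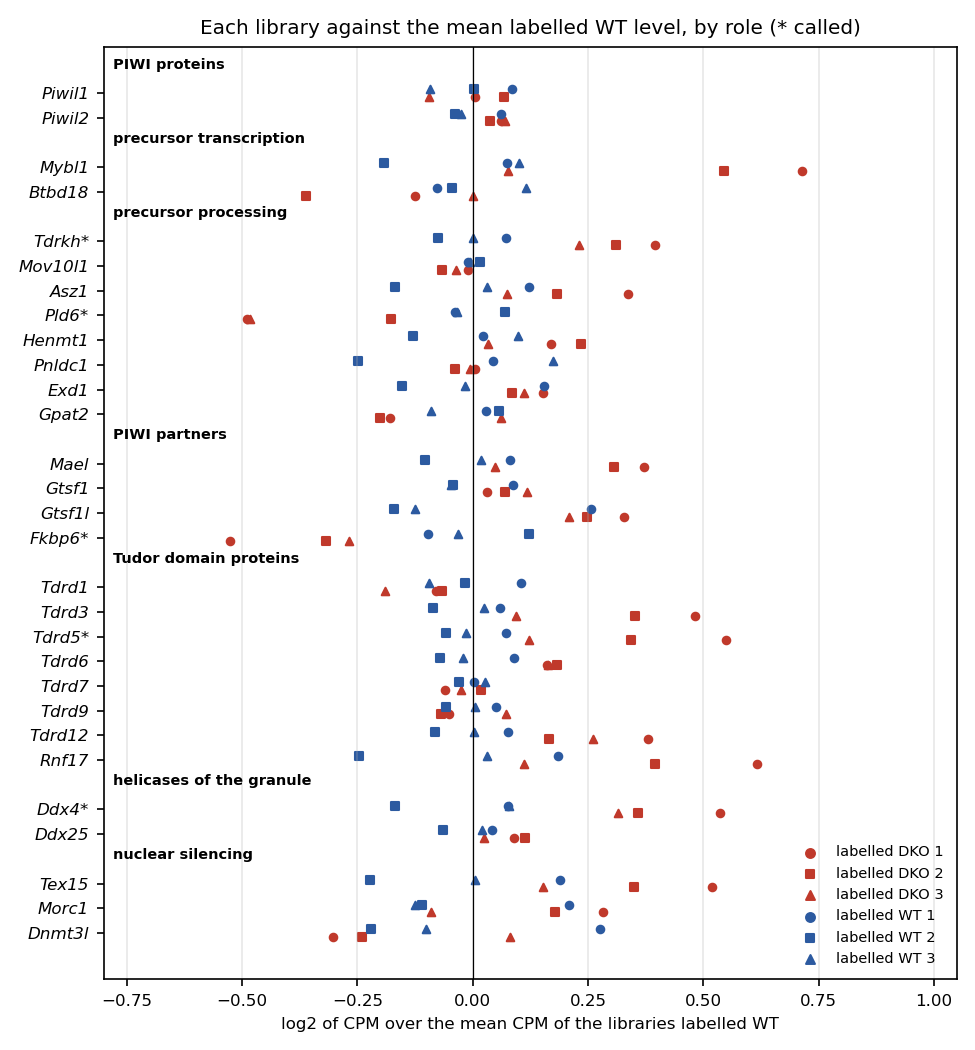
Log2 ratio of each library's CPM to the mean of the libraries labelled WT for the 29 tested members, grouped by role (red, labelled DKO; blue, labelled WT; circle, square and triangle, replicates 1, 2 and 3; asterisk, called at an adjusted p under 0.05). For Ddx4, Tdrkh and Tdrd5 all red points lie right of all blue points, for Pld6 and Fkbp6 all lie left, and for Piwil1 and Piwil2 the colours mix.

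Among the PIWI genes, Piwil1, which encodes the PIWI protein of pachytene spermatocytes and round spermatids (MIWI), had 517, 540 and 483 CPM in libraries labelled DKO and 546, 516 and 483 CPM in those labelled WT. The groups overlapped fully. Its log2 fold change was -0.0055 (SE 0.0762, edgeR adjusted p = 0.969), with a 95% interval from -0.17 to 0.16. Piwil2 (MILI), the PIWI protein present from fetal germ cells to round spermatids, had 201, 198 and 202 CPM against 201, 188 and 190 CPM. Its interval ran from -0.0882 to 0.20 around a log2 fold change of 0.0571 (adjusted p = 0.587). Piwil4 (MIWI2), the nuclear PIWI protein that acts in fetal germ cells, was counted 5, 7 and 11 times in libraries labelled DKO and 4, 6 and 10 times in those labelled WT. It did not pass the filter on low counts, and at this depth no difference was detectable (adjusted p = 0.533 without the filter).

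Of the 2 genes for transcription of piRNA precursors, neither was called. Mybl1 (A-MYB), the transcription factor of pachytene piRNA loci and of many pathway genes, had 92.1, 81.9 and 59.2 CPM in libraries labelled DKO and 59.0, 49.1 and 60.2 CPM in those labelled WT. DKO replicates 1 and 2 lay above all libraries labelled WT, while DKO replicate 3 lay within their range. Its log2 fold change of 0.47 (SE 0.140) was the largest in size among the members, with an adjusted p of 0.0526. Btbd18, which promotes elongation of precursor transcripts, had a log2 fold change of -0.15 (adjusted p = 0.429), with overlap between groups.

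Among the 8 genes for precursor processing, Tdrkh was called higher and Pld6 lower. Pld6 had 52.1, 64.6 and 52.3 CPM in libraries labelled DKO and 71.2, 76.7 and 71.4 CPM in those labelled WT. The groups did not overlap, and DKO replicates 1 and 3 lay together below DKO replicate 2. The log2 fold change was -0.38 (SE 0.0912, 95% interval -0.58 to -0.18, edgeR adjusted p = 0.0345), a decrease by 23.0%. Tdrkh had 25.5, 24.0 and 22.8 CPM against 20.4, 18.4 and 19.4 CPM, again with no overlap. Its log2 fold change was 0.31 (SE 0.0832, 95% interval 0.13 to 0.50, adjusted p = 0.0398), an increase of 24.2%. Exons of Tdrkh overlap those of Oaz3, a spermatid gene on the opposite strand with 1582 CPM and 1408 CPM in libraries labelled DKO and WT. Since strand handling is not given in the sources used here, reads of the pair in the shared stretch cannot be told apart.

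The other 6 processing genes were not called. Mov10l1, the helicase that feeds precursors to the nuclease, had 105, 101 and 103 CPM in libraries labelled DKO and 105, 107 and 105 CPM in those labelled WT. Its groups did not overlap, yet they were separated by less than 1 CPM, and the log2 fold change was -0.0383 (adjusted p = 0.718). Asz1, a scaffold on the mitochondrial surface, had a log2 fold change of 0.20 (adjusted p = 0.195), and Gpat2, a mitochondrial acyltransferase that binds PIWIL2, one of -0.0997 (0.459). Exd1, a partner of TDRD12, had 0.12 (adjusted p = 0.406). The 2 enzymes that finish piRNA ends, the trimmer Pnldc1 and the methyltransferase Henmt1, had log2 fold changes of -0.0101 (adjusted p = 0.967) and 0.15 (0.278). For Pnldc1 the 95% interval ran from -0.30 to 0.28.

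Of the 4 genes for partners of PIWI proteins, Fkbp6 was called lower. It had 28.4, 32.8 and 33.97 CPM in libraries labelled DKO and 38.2, 44.5 and 40.0 CPM in those labelled WT. The highest library labelled DKO lay below the lowest labelled WT. The log2 fold change was -0.37 (SE 0.0902, 95% interval -0.56 to -0.17, edgeR adjusted p = 0.0358), a decrease by 22.4%. Mael had 1176, 1124 and 940 CPM against 960, 845 and 920 CPM, with DKO replicate 3 inside the range of the libraries labelled WT (log2 fold change 0.25, adjusted p = 0.0938). Gtsf1, a small zinc finger protein that assists the slicing of targets by PIWI proteins, and its paralogue Gtsf1l had log2 fold changes of 0.0735 (adjusted p = 0.502) and 0.26 (0.112), and WT replicate 1 of Gtsf1l, at 319 CPM, lay within the range of the libraries labelled DKO (309 to 335 CPM).

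Among the 8 Tudor domain genes, Tdrd5 was called higher. The libraries labelled DKO lay above all those labelled WT for 4 of the 8 (Tdrd3, Tdrd5, Tdrd6 and Tdrd12), where 18.4% of all genes tested did so, and no test sets these few genes apart from the other roles. It had 104, 90.0 and 77.2 CPM in libraries labelled DKO and 74.6, 68.1 and 70.2 CPM in those labelled WT. DKO replicate 3 lay just above the highest library labelled WT. The log2 fold change was 0.35 (SE 0.0999, 95% interval 0.13 to 0.57, edgeR adjusted p = 0.0483), an increase of 27.3%. Tdrd6, a large scaffold of the chromatoid body, had 869, 883 and 870 CPM against 827, 740 and 766 CPM (log2 fold change 0.17, adjusted p = 0.126). Tdrd12, needed for amplification of piRNAs in fetal germ cells, had 26.0, 22.4 and 24.0 CPM against 21.1, 18.9 and 20.04 CPM (0.27, adjusted p = 0.0621). Tdrd3, which is known as a partner of topoisomerase 3B more than as a piRNA factor, had 64.4, 58.8 and 49.2 CPM against 48.0, 43.4 and 46.8 CPM (0.32, adjusted p = 0.0558). Rnf17, a repressor of secondary piRNA amplification in spermatocytes, had 222, 190 and 156 CPM against 164, 122 and 148 CPM, with overlap (0.39, adjusted p = 0.0706). The remaining 3 were close to 0: Tdrd1, a partner of PIWIL2 in the intermitochondrial cement, at -0.11 (adjusted p = 0.334), Tdrd7, a chromatoid body protein, at -0.0223 (0.845), and Tdrd9, a helicase of the fetal granule, at -0.0151 (0.906).

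The helicase gene Ddx4 had the smallest p of all members. It had 667, 590 and 572 CPM in libraries labelled DKO and 485, 409 and 486 CPM in those labelled WT. The lowest library labelled DKO, replicate 3, lay well above the highest labelled WT, replicate 3. The log2 fold change was 0.41 (SE 0.0898, 95% interval 0.21 to 0.60, edgeR adjusted p = 0.0292), an increase of 32.6%. Ddx25, a hormone-regulated helicase of the chromatoid body that exports mRNA in spermatids, had a log2 fold change of 0.0756 (adjusted p = 0.480), with overlap.

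None of the 3 genes for nuclear silencing was called. Tex15, which acts with PIWIL4 in fetal DNA methylation and is also needed in meiosis, had 94.6, 84.1 and 73.4 CPM in libraries labelled DKO and 75.3, 56.5 and 66.2 CPM in those labelled WT. DKO replicate 3 lay below WT replicate 1, so the groups overlapped (log2 fold change 0.35, adjusted p = 0.0661). Morc1, a silencer of transposons in fetal germ cells, and Dnmt3l, the cofactor of de novo DNA methylation, had 4.78 to 6.34 CPM and 7.98 to 11.9 CPM over all libraries. Their log2 fold changes were 0.13 (adjusted p = 0.555) and -0.13 (0.560). Exons of Dnmt3l overlap those of Aire on the opposite strand.

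The promoters of the 5 called members are shown because these are the members whose RNA passed the test, and to set their start regions side by side. Each is the stretch from 250 bases before to 50 after a RefSeq start site, 300 bases in GRCm38.p6. Of a gene's listed start sites, the one closest to the 5′ end of its RefSeq span was taken, and for Ddx4, Tdrd5 and Fkbp6 that span begins further upstream. Capitals mark 3 motifs searched on both strands: the E-box CACGTG, the CCAAT box (or ATTGG), and CAACTG (or CAGTTG), a form of the MYB core. Other forms of the MYB core, such as CAACGG and TAACTG, were not searched and are not marked. No matches overlapped each other. Ddx4 lies at chr13:112652261-112652560 (minus strand), Tdrkh at chr3:94412994-94413293 (plus), Tdrd5 at chr1:156303299-156303598 (minus), Pld6 at chr11:59787608-59787907 (minus) and Fkbp6 at chr5:135349995-135350294 (minus).
Ddx4: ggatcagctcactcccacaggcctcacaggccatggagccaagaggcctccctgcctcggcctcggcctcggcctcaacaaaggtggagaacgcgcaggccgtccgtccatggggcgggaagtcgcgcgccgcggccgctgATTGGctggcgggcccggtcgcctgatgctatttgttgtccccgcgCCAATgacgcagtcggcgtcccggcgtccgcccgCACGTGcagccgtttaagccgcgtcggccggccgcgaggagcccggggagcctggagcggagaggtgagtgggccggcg
Tdrkh: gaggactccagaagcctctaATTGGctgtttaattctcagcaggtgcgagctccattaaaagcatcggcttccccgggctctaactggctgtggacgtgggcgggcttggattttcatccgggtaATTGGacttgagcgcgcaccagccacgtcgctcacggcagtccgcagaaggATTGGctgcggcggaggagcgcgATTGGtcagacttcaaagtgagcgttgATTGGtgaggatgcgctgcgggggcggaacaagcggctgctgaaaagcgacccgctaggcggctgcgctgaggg
Tdrd5: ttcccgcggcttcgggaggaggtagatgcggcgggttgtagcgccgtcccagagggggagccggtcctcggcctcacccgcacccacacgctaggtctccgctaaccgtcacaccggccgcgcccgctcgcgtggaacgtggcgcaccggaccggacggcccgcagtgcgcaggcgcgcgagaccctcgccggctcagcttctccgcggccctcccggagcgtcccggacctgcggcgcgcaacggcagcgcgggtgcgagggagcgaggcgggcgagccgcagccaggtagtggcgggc
Pld6: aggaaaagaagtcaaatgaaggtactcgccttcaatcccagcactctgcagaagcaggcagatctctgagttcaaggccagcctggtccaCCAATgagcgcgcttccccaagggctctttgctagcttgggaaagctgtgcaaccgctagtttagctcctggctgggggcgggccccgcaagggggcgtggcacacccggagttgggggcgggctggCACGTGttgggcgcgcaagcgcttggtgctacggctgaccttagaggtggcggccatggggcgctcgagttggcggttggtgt
Fkbp6: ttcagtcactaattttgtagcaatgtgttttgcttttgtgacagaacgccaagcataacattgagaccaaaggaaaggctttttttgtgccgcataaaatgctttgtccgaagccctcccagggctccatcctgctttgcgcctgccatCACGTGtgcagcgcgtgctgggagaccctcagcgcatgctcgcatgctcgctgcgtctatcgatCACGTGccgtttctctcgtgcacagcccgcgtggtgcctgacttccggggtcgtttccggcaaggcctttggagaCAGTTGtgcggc

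Counted from the start site, the E-box of Ddx4 begins at -29 and that of Pld6 at -33, while Fkbp6 has 2, at -101 and -37. Tdrkh has 5 CCAAT boxes, from -230 to -24, and no E-box. The promoter of Tdrd5 has none of the 3 motifs searched and is the richest in GC of the 5, at 76.0% with 48 CG dinucleotides. Over the 23 members with a promoter in the RefSeq table, 9 (39.1%) hold CACGTG, against 7.24% of all 27025 promoters: Ddx25, Ddx4, Fkbp6, Mael, Mov10l1, Piwil1, Pld6, Tdrd1 and Tdrd9. CCAAT was found in 12 of the 23 (52.2%), against 38.0% of all promoters. CAACTG was found in 3 (Fkbp6, Piwil1 and Tdrd7), against 13.6% of all promoters. Piwil2, Tdrd6, Rnf17, Mybl1, Pnldc1, Tex15 and Morc1 were not in the table. Members with an E-box were called in both directions (Ddx4 higher, Pld6 and Fkbp6 lower) or not at all (the other 6). The shares over all promoters were not matched for GC or CG content, and CACGTG itself contains a CG. The part of base composition in these shares was not tested. A match describes letters of the window and is not shown to be a bound site.

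The fold changes of the members followed the GC content of their transcripts. Over the 29 tested members, which share the same libraries, Spearman's rho between log2 fold change and GC content was -0.81, and over the 16840 tested genes with a GC value it was -0.58. The 6 members under 45% GC (Ddx4, Tdrd3, Rnf17, Asz1, Mybl1 and Tex15) had log2 fold changes from 0.20 to 0.47 with a median of 0.37, where the median of all genes of that class was 0.23. The 14 members from 45% to 50% had a median of 0.0970, against 0.0657 for all genes. The 9 members above 50% had a median of -0.0151, against -0.13 for all genes. Pld6, with 61.5% GC, had both the highest GC content and the lowest log2 fold change among the members. Transcript length followed less closely, with a rho of 0.19 over the members.

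**Figure D3:**
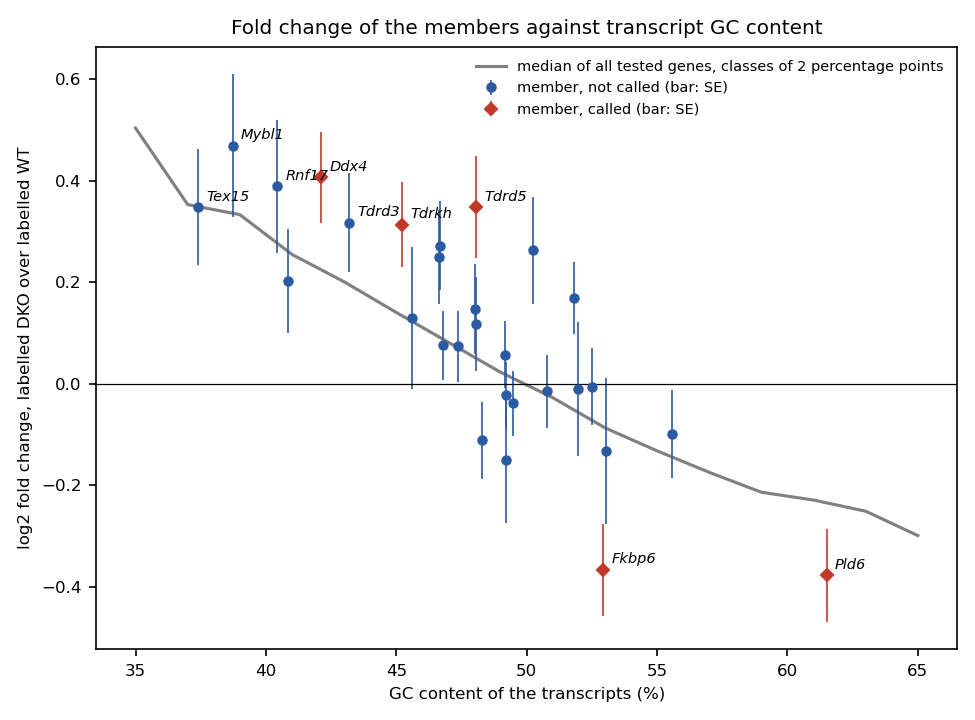
Log2 fold change (bar, SE) of the 29 tested members against the GC content of their transcripts in percent (red diamonds, called; blue circles, not called), with the median of all tested genes in classes of 2 percentage points as a grey line. Members and line both fall from left to right, Fkbp6 lies below the line, and Tdrd5 lies above it.

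With each library's smooth trends on length and GC content removed, an alternative chosen after seeing the data, 0 of the 29 members were called, with 10 (34.5%) at an unadjusted p under 0.05. Of all genes tested in that fit, 591 (3.45%) were called and 22.5% had an unadjusted p under 0.05. The log2 fold change of Ddx4 was then 0.18 (edgeR adjusted p = 0.0992), of Tdrkh 0.17 (0.161), of Tdrd5 0.27 (0.0980), of Pld6 -0.18 (0.166) and of Fkbp6 -0.29 (0.0627). Against the fit without this offset, Fkbp6 went from -0.37 to -0.29 and Tdrd5 from 0.35 to 0.27. The drop was larger for Mybl1, from 0.47 to 0.14, Rnf17, from 0.39 to 0.10, and Tex15, from 0.35 to -0.0292. Gtsf1l, at 50.2% GC, went from 0.26 to 0.33 (adjusted p = 0.0893). The median of the 29 was 0.0171 in this fit, against -0.0186 over all genes, and rho with GC content was -0.42, against -0.0994 over all genes. With an offset from the effective lengths alone, Ddx4, Tdrkh, Pld6 and Fkbp6 were called and Tdrd5 was not (adjusted p = 0.0567). Tdrd5 was called in 4 of the 11 alternatives that used all libraries, and it also missed the threshold with the length trend alone removed (0.0561) and after thinning (0.0607).

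**Figure D4:**
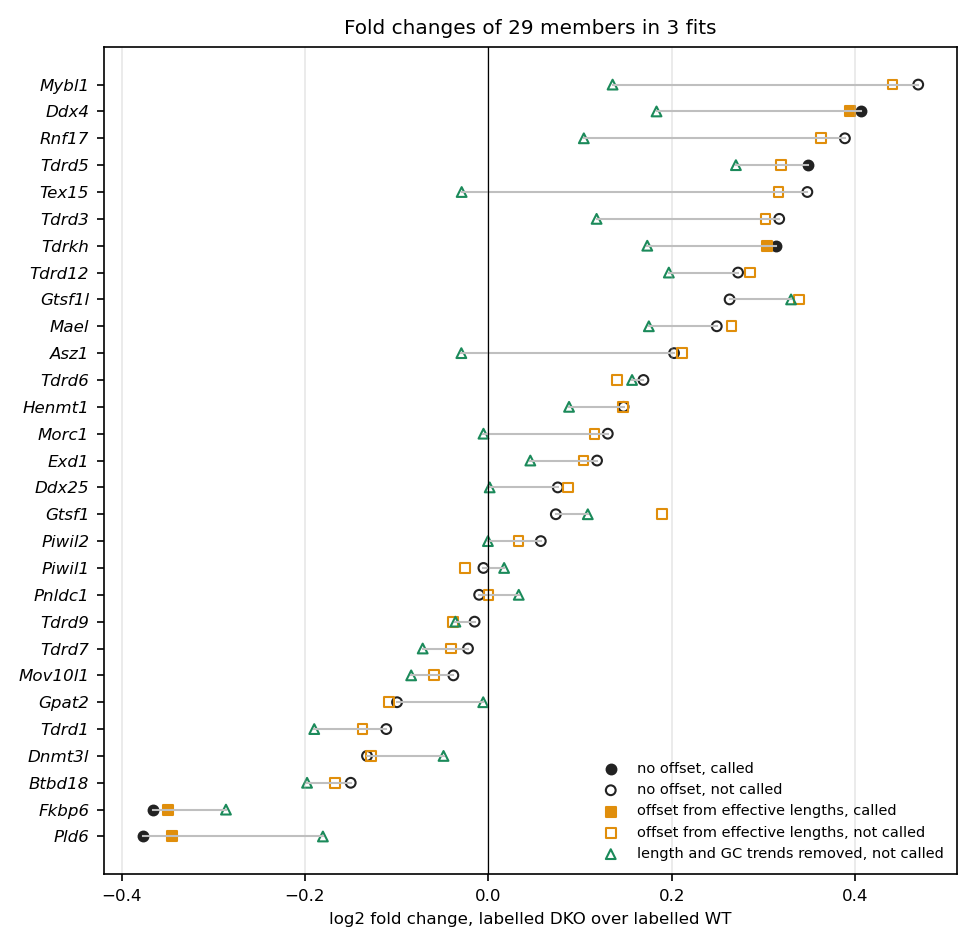
Log2 fold changes of the 29 tested members in the fit with no offset (black circles), with an offset from the effective lengths (orange squares) and with length and GC trends removed (green triangles), filled where the adjusted p was under 0.05. Filled symbols are limited to Ddx4, Tdrkh, Tdrd5, Pld6 and Fkbp6, and no green triangle is filled.

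Single libraries also moved with the members. DKO replicate 1, which had the longest fragments (317 bases), was the highest of the libraries labelled DKO for 15 of the 29 members, against 36.5% of all genes tested. WT replicate 2, with the shortest fragments (230 bases), was the lowest of the libraries labelled WT for 20 of the 29, against 41.5% of all genes. Without DKO replicate 1, without WT replicate 2 or without WT replicate 3 no member was called, while 9, 8 and 10 members had an unadjusted p under 0.05. Few genes of any kind were called in these fits, 11, 13 and 7 in turn, and 20.9%, 21.8% and 24.8% of all genes had an unadjusted p under 0.05, so the loss of calls was not limited to the members. Without DKO replicate 2, Ddx4 and Pld6 were called, with 655 of all genes. Without WT replicate 1, where 2037 of all genes were called, the members called were Ddx4, Tdrkh, Rnf17, Gtsf1l, Tex15, Pld6 and Fkbp6. Without DKO replicate 3, 10 members were called: Mael, Ddx4, Tdrd3, Tdrd5, Tdrkh, Rnf17, Mybl1 and Tex15 higher, and Pld6 and Fkbp6 lower. In that fit 3029 of all genes (17.7%) were called, against 1856 (10.8%) with all 6 libraries. Ddx4 and Pld6 were called in 3 of the 6 fits that left out a library, Tdrkh and Fkbp6 in 2 and Tdrd5 in 1.

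Markers of the cell types of the testis were read beside the members, many of which are known from spermatocytes and round spermatids. Of 12 tested spermatocyte markers, 3 were called, all higher (Sycp3, Hormad1 and Pou5f2), with a median log2 fold change of 0.30. Their summed level was 3907 to 4218 CPM in libraries labelled DKO and 3557 to 3787 CPM in those labelled WT, with no overlap. Most of this sum was Ldhc, at 2999 to 3018 CPM and 2809 to 2928 CPM in turn. Ldhc was not called (log2 fold change 0.0599, edgeR adjusted p = 0.579). The median GC content of the 12 markers was 43.4%. With length and GC trends removed, the median log2 fold change of the 12 was 0.0774, with Sycp3 and Pou5f2 called. Round spermatid markers had 0 of 10 called and a median of -0.0142, with summed levels of 1857 to 1906 CPM and 1734 to 2077 CPM. Spermatogonial markers had 0 of 11 called (median 0.0043; 161 to 168 CPM and 154 to 168 CPM). Markers of elongating spermatids had 1 of 10 called higher and 1 lower (27687 to 32195 CPM and 28588 to 32193 CPM). Leydig markers had 3 of 7 called lower (412 to 625 CPM and 600 to 1145 CPM), Sertoli markers 2 of 10 lower (1034 to 1234 CPM and 1168 to 1440 CPM), myoid markers 1 of 5 lower (117 to 131 CPM and 133 to 176 CPM) and macrophage markers 0 of 6 (32.9 to 37.9 CPM and 32.3 to 61.5 CPM). With length and GC trends removed, the median log2 fold change of the Leydig markers went from -0.50 to -0.71, with 2 called lower. That of the Sertoli markers went from -0.18 to -0.11 and of the myoid markers from -0.31 to -0.29, with 1 called lower in each. The macrophage median went from -0.40 to -0.42, with 0 called. In that fit the spermatogonial, round spermatid and elongating spermatid medians were 0.0144, 0.0744 and 0.11, with 0 called. The part of cell composition in the members' differences was not tested.

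Other genes of the pathway were read from a list of 36, of which 31 were in the files and 29 were tested. Of these, 1 was called higher and 1 lower, and the median log2 fold change was 0.0725. Cnot7, a deadenylase subunit found with PIWIL1 in spermatids, rose from 68.2 ± 4.70 to 90.3 ± 12.3 CPM (SD, n = 3 each; log2 fold change 0.40, edgeR adjusted p = 0.0349). Adad2, an RNA-binding protein of germ cell granules, fell from 26.7 ± 1.28 to 21.4 ± 1.38 CPM (-0.31, adjusted p = 0.0395). They stand at 38.7% and 63.0% GC, and with length and GC trends removed neither was called (0.0858, adjusted p = 0.434, and -0.10, adjusted p = 0.485). In that fit Tsks, a protein of granules in elongating spermatids, was called (log2 fold change 0.30, adjusted p = 0.0380).

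The deposited lengths give a further readout, since each is an average over a gene's annotated transcripts weighted by their estimated abundance. Of the 11 members with several transcripts, 3 were longer in every library labelled DKO (27.3%, against 8.24% of 4805 such genes) and 1 was shorter (9.09%, against 7.30%). Tdrd5 was 3415, 3432 and 3418 bases in libraries labelled DKO and 3391, 3412 and 3393 bases in those labelled WT. Pld6, the shorter one, was 1700, 1721 and 1695 bases against 1726, 1734 and 1727 bases. Both differences, 23.3 bases and -23.8 bases, were small against the transcripts. Those of Fkbp6 (7.44 bases) and Mybl1 (6.46 bases) were smaller still, and Tdrd7 had the same length in all libraries. The shortest value in libraries labelled DKO was 1338.74 bases for Fkbp6 and 4955.37 bases for Mybl1. The longest in those labelled WT was 1338.18 and 4954.9 bases in turn. The shares of longer and shorter members rest on few genes.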

How the data were processed

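Whole-testis RNA was sequenced in 6 libraries, 3 per genotype label. Per the file headers, the authors deposited RSEM gene-level output per library: expected counts (estimates, 93.2% of them whole), TPM, FPKM (not used) and lengths. The submitters' processing notes list STAR 2.7.0f, RSEM 1.2.31, DESeq2 1.12.3 and mm10, with no role. Strand handling is not given in the sources used here. Expected counts were rounded, filtered by filterByExpr and scaled by TMM. The groups were compared over all genes with the quasi-likelihood test of edgeR 4.0.16, with Benjamini-Hochberg adjustment. Replicate numbers follow deposition order and pair nothing. Fragment length was taken from genes above 3000 bases, as the typical gap between the deposited length and effective length, plus 1. GC content came from GENCODE M21 transcripts by RefSeq accession (97.8% of genes, and all members). Alternatives used DESeq2 1.42.0, limma 3.58.1 and mgcv 1.9.3. The fit was tested on simulated counts that held no trend on length or GC content, which cannot bear on the trends seen here. Promoters and coordinates are RefSeq's (GRCm38.p6). The members and lists were chosen with earlier results of these data known. By a fixed rule, per-library values are given for called members and PIWI genes. The same rule names up to 6 called genes of the other pathway list. Values of other members, and the cell type markers named, were chosen after they were seen.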

Additional observations from a re-analysis of the deposited data

How the results depend on the processing

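No paired analysis was possible because the labels give no replicate numbers shared between the groups. The count of called genes was 1856, and 2943 with DESeq2, 735 and 947 with limma on log2(TPM + 1) and log2(TPM + 0.1), 591 with length and GC trends removed, 1 with fragment length as a covariate and 7 at an adjusted p under 0.01. The count of called members, 5, was 9 without the count filter, 11 with DESeq2, and 2 and 3 with limma at these pseudocounts. Of all genes tested, 10.8% were called in the main fit, 11.0% without the filter, 17.2% with DESeq2, and 4.30% and 5.53% with limma. No member was called with length and GC trends removed or at an adjusted p under 0.01. The same was so with fragment length as a covariate, where 0 members had an unadjusted p under 0.05, against 3.19% of all genes tested. The median of the members moved from 0.12 to 0.0171 with length and GC trends removed and to -0.0661 with the covariate. The other pathway genes, with 2 called, had 4 without the filter, 5 with DESeq2, 0 and 1 with limma, 1 with length and GC trends removed and 0 with the covariate. Across the fits that left out 1 replicate, called genes ranged from 7 to 3029, members from 0 to 10, the median from 0.0456 to 0.14 and the other pathway genes from 0 to 9. Size factors from DESeq2, a mean count of at least 50, effective lengths, the length trend alone and thinning left each of these values the same or within 1.5 times, with 4 or 5 members called. The members differed: Tdrd5 was not among them with effective lengths, with the length trend removed or after thinning, and Tdrd12 was called after thinning (adjusted p = 0.0461).

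Directions reversed for members that were not called, and for 1 called member. With the covariate the log2 fold change was -0.0888 for Mael, -0.0226 for Ddx25, -0.0661 for Tdrd3, -0.0693 for Tdrd5, 0.0152 for Tdrd9, -0.24 for Rnf17, -0.16 for Asz1, -0.17 for Mybl1, -0.0476 for Gtsf1l, -0.0190 for Henmt1, -0.0679 for Exd1, 0.0908 for Gpat2, -0.15 for Tex15 and -0.31 for Morc1. With length and GC trends removed it was 0.0171 for Piwil1, -0.00057 for Piwil2, -0.0295 for Asz1, 0.0330 for Pnldc1, -0.0292 for Tex15 and -0.0054 for Morc1. Piwil1 was 0.0030 without the filter, Piwil2 -0.0122 and -0.0124 with limma, and Pnldc1 0.00014 with effective lengths, 0.0135 with the length trend removed and 0.0365 after thinning. Leaving out 1 replicate gave -0.0522 to 0.0373 for Piwil1, -0.0604 to 0.0023 for Tdrd9, -0.13 to 0.0880 for Pnldc1 and -0.27 to 0.0071 for Dnmt3l. The covariate does not overlap between the groups and takes a degree of freedom. The cause of the other changes was not tested. Depth limits Piwil4, with 4 to 11 counts per library.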
